A study of Hydra viridissima with 2 samples.

Results

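Opposite-strand neighbours are pairs of transcription start clusters that lie close together on the 2 strands of the DNA. They were taken here from whole polyps of Hydra viridissima by CAGE, which maps where capped RNAs begin. The tags of both libraries were pooled by scaffold, base and strand. On each strand, positions with at most 20 bases between them were joined, and clusters of at least 5 pooled tags were kept. Members were chosen by these pooled counts and positions: a cluster was a member when its top position, the base with the most tags, had the top position of an opposite-strand cluster 1 to 500 bases upstream (divergent, the partners transcribed away from each other) or downstream (convergent, transcribed towards each other). Of 54909 single-strand clusters, 291 were members, 0.530% (95% exact interval 0.471 to 0.594). There were 95 divergent and 199 convergent clusters, and 3 belonged to both kinds.

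There was 1 library of aposymbiotic polyps, from which the green algae are missing, and 1 of symbiotic polyps that carry them. Polyps of both groups belonged to clone 2, were kept at 24 °C and were fed brine shrimp. About 200 large polyps were pooled for each RNA, whose integrity number was 10. The aposymbiotic library held 2138180 tags and the symbiotic library 3926689, or 1.84 times as many. With 1 library per group there was no replicate check and no p-value, so each difference below is one between 2 libraries. Intervals are at 95%, take in the error of counting alone and treat each tag as independent. Copies of a molecule made by PCR are not independent, so the intervals are too narrow where such copies were kept. Fewer cells of a type cannot be told apart from less RNA per cell. A gene annotation and a genome sequence were not used here, so the pairs are given by scaffold and base, counted from 1.

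In many animals, transcription from open promoter DNA starts in both directions, and the upstream transcript is often short and quickly degraded. A divergent pair can also be the shared promoter region of neighbouring genes on opposite strands. Convergent starts can arise where an antisense transcript begins inside or just behind a gene. CAGE can see such transcripts only where they are capped and stable enough to be sampled.

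Pairing each member with its nearest opposite-strand neighbour of the same kind gave 71 divergent and 133 convergent pairs. Members often shared partners, so the pairs lay in 24 divergent and 66 convergent places, a place being all clusters linked through pairs. Of these, 6 divergent and 25 convergent places held 1 pair, and the fullest held 6 and 5. Pairs of the same place share clusters and are not independent. Since the pooled tags chose the members, their number, distance and balance are descriptions. A same-strand cluster top at 1 to 500 bases upstream was far more common, at 62.2% of all clusters, against 0.173% (0.140 to 0.211) with a divergent and 0.362% (0.314 to 0.416) with a convergent partner.

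The divergent pair with the most tags in its weaker partner lay on scaffold_3, with a minus cluster from base 13418008 to 13418072 and a plus cluster from 13418465 to 13418516, their tops 438 bases apart. Its minus partner had 31 aposymbiotic and 57 symbiotic tags, and its plus partner had 41 and 34. The partners were thus nearly balanced, the weaker holding 46.0% of the tags (38.2 to 54.0). In CPM, tags scaled to the same library total, the symbiotic level of the plus partner was 0.452 times the aposymbiotic one (0.278 to 0.729), while that of the minus partner was the same within counting error (0.636 to 1.60 times). Its plus partner was the only cluster of its locus, a locus being same-strand clusters with at most 1000 bases between neighbours. Another minus cluster of the same place, from 13418146 to 13418153, had 0 aposymbiotic and 13 symbiotic tags, where 3 tags is the limit that a count of 0 allows.

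In convergent pairs the weaker partner had at most 18 tags, a number reached by a pair on scaffold_8, given further on, and by one on scaffold_3 with more joint tags. On scaffold_3, a plus cluster from 17254775 to 17254778 had 11 aposymbiotic and 7 symbiotic tags, and a minus cluster from 17255210 to 17255257 had 16 and 17, with 452 bases between the tops. The plus partner stood at 0.347 times the aposymbiotic level in the symbiotic library (0.114 to 0.979), and the minus partner at 0.579 times, within counting error (0.275 to 1.22). Together they stood at 12.6 CPM aposymbiotic and 6.11 CPM symbiotic, a 2.07-fold difference (1.15 to 3.74). Its plus partner was narrow and alone in its locus, and the minus partner was the last cluster, nearest the 3′ end, of its locus.

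**Figure D1:**
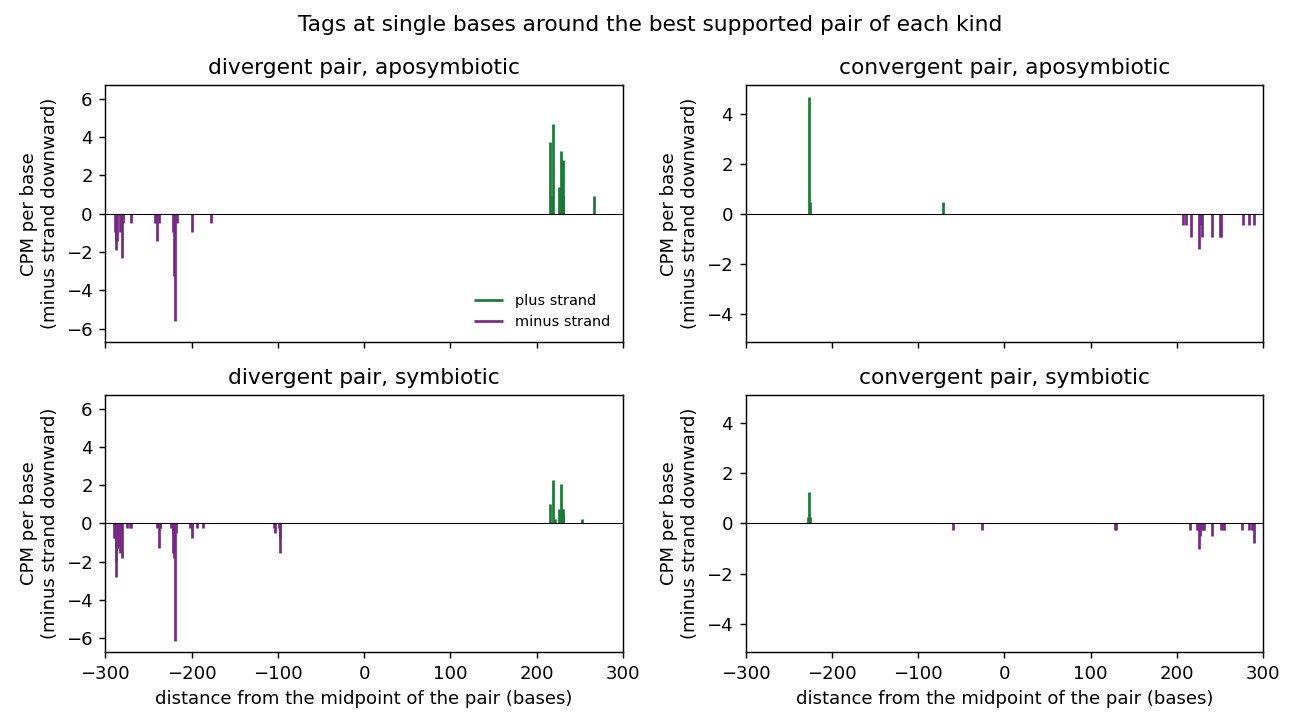
Tags per base in CPM (vertical axis, plus strand upward and minus strand downward) against distance in bases from the midpoint of the pair, for the divergent pair with the most tags in the weaker partner (left) and the one of 2 convergent pairs tied at 18 such tags that has more joint tags (right), in the aposymbiotic (top) and symbiotic library (bottom). The tops of the divergent pair are 438 bases apart and both its strands use many bases, while the plus cluster of the convergent pair, with 11 and 7 tags, stands on neighbouring bases. Tags over 290 bases from the midpoint are not drawn, and on the minus strand a stronger peak lies just beyond that limit in the convergent panels.

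Neither kind was concentrated at short distance. The median distance between tops was 371 bases (exact interval of the median 317 to 399) in divergent and 376 bases (351 to 395) in convergent pairs, with ranges of 27 to 486 and 3 to 498. Only 2 divergent pairs had tops within 100 bases, against 15 convergent pairs, and 48 of 71 and 94 of 133 were over 300 bases apart. Counting every pair, not only nearest ones, divergent pairs numbered 2 (0.242 to 7.22) in the first 100 bases, 6 in the second, 25 (16.2 to 36.9) from 301 to 400 and 31 (21.1 to 44.0) from 401 to 500. The level went on rising outside the window, to 43.0 pairs per 100 bases from 501 to 1000, 55.9 from 1001 to 2000 and 327 from 10001 to 20000. Convergent pairs were level at first, with 15 (8.40 to 24.7), 10 and 14 in the first 3 bins, and then rose to 43 and 52 (38.8 to 68.2) in the fourth and the fifth, 62.6 per 100 bases from 501 to 1000, 120 from 1001 to 2000 and 344 from 10001 to 20000. The window thus held no peak of either kind over the level further away, and the fewest divergent pairs lay nearest to the start.

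**Figure D2:**
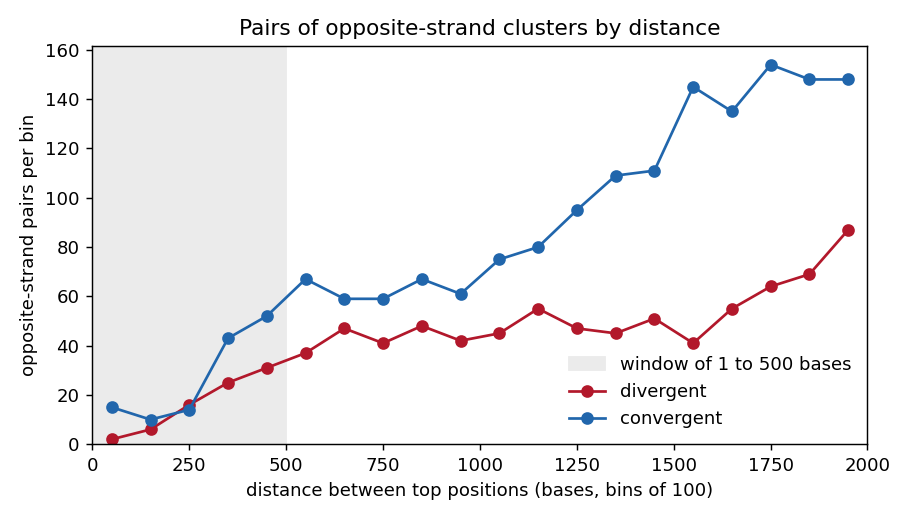
Number of opposite-strand pairs in bins of 100 bases (vertical axis) against the distance between top positions in bases, for divergent and convergent pairs, with the window of 1 to 500 bases shaded. Both curves are low near 0 and higher outside the window, and the convergent curve lies above the divergent one in most bins, with 15 against 2 pairs in the first and 14 against 16 in the third.

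The limits of the rule cut through a continuous range. From 491 to 500 bases there were 1 divergent and 5 convergent pairs, and from 501 to 510 bases 4 and 5. The weaker partner had exactly 5 tags in 19 divergent and 31 convergent pairs, and a minimum of 4 tags would have added 59 and 72 pairs whose weaker partner had 4 tags.

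Opposite-strand tags were also counted without a minimum of 5. Around the top positions of the 5180 clusters with at least 50 pooled tags, the share with any opposite-strand tag in a given stretch of 100 bases was 1.22% in the first stretch downstream and 0.792% in the first stretch upstream. Upstream it was nearly flat over the window, lowest at 301 to 400 bases with 0.734% and 0.985% at 401 to 500 bases, so it lacked the steady rise of the divergent pairs. Downstream it was 1.04% in the second stretch and 1.80% in the fifth, and at 1901 to 2000 bases the shares were 4.02% downstream and 1.60% upstream. Same-strand tags were found in 99.5% of the first stretches upstream and in 51.1% at 401 to 500 bases. These include tags of the cluster itself, so the share in the first stretch is high by construction. Strong starts thus had few capped tags of the other strand within 500 bases on either side, and more of them further away.

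Most pairs rested on few tags and had a clear stronger side once the tags were many. The weaker partner had a median of 6 tags in divergent and 7 tags in convergent pairs, and at most 75 and 18. It held a median of 35.3% (26.1 to 40) of the tags of a divergent and 31.8% (27.8 to 35.7) of those of a convergent pair, but a cluster cannot be kept with under 5 tags, which holds this share high in pairs with few tags. In pairs with at least 50 joint tags the medians were 9.89% (17 pairs) and 6.45% (39 pairs). When all clusters of a place were summed, the weaker strand held 23.2% (11.5 to 36.8) in divergent and 14.4% (8.45 to 20.8) in convergent places. A share of at least 40% was reached by 6 of 24 divergent and 6 of 66 convergent places. The stronger partner was on the plus strand in 30 and on the minus strand in 36 divergent pairs, and in 64 and 65 convergent pairs.

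**Figure D3:**
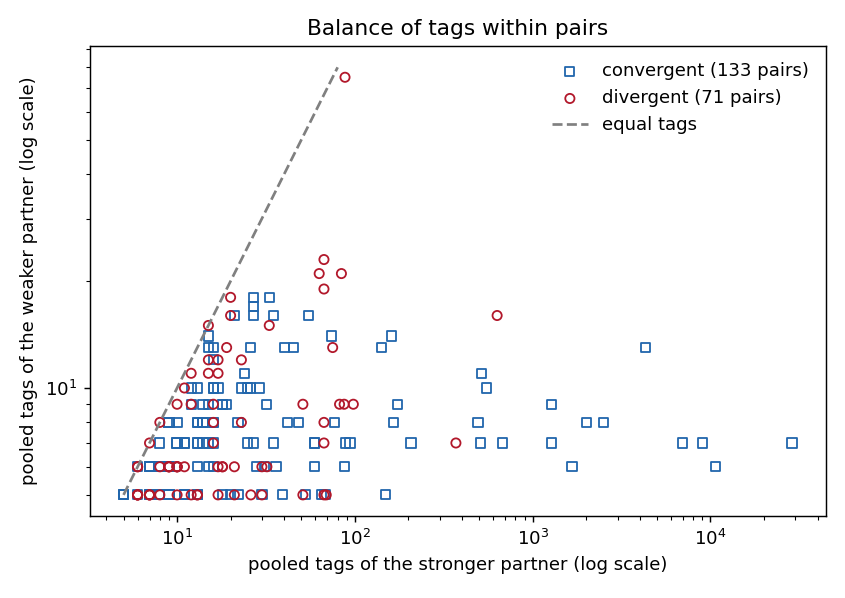
Pooled tags of the weaker partner against pooled tags of the stronger partner, both on log scales, for 71 divergent and 133 convergent pairs, with a dashed line at equal tags. Divergent pairs reach 75 tags in the weaker partner and 631 in the stronger one, whereas convergent pairs spread to the right up to 28763 tags with at most 18 in the weaker partner.

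Among the other divergent pairs, a place on scaffold_7 from 10699282 to 10699814 had 1 minus cluster facing 5 plus clusters. The minus cluster had 13 aposymbiotic and 54 symbiotic tags and the plus clusters together 17 and 45, so the weaker strand held 48.1%. The minus cluster was 2.26-fold higher in the symbiotic library (1.22 to 4.52), the log2 ratio of the plus strand was 0.48, and together they stood at 14.0 CPM aposymbiotic and 25.2 CPM symbiotic, 1.80-fold higher (1.18 to 2.80).

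On scaffold_6, a place from 13989369 to 13990067 had 4 minus clusters with 65 aposymbiotic and 93 symbiotic tags and 3 plus clusters with 7 and 27. The values of the strands had opposite signs: the log2 ratio of symbiotic to aposymbiotic CPM + 1 was -0.35 on the minus and 0.88 on the plus strand. The place as a whole was at 0.908 times the aposymbiotic level (0.672 to 1.23), so its sum hid the difference between strands. Another place on scaffold_6, from 13742885 to 13743461, had 25 and 42 plus tags and 15 and 11 minus tags, with log2 ratios of -0.12 and -1.08.

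On scaffold_3 from 5320112 to 5320829, the plus strand was by far the stronger, with 174 aposymbiotic and 485 symbiotic tags against 26 and 21 on the minus strand. Its strongest pair, a plus cluster from 5320626 to 5320829 with 169 and 462 tags and a minus cluster from 5320257 to 5320340 with 6 and 10, held 2.47% of its tags in the weaker partner (1.42 to 3.98). That was the divergent pair with the most tags. The log2 ratio was 0.60 on the plus and -1.05 on the minus strand of the place, again in opposite directions.

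A place on scaffold_9 from 7179357 to 7179877 had the lowest joint ratio among divergent pairs with at least 50 tags. Its minus cluster had 8 aposymbiotic tags and 1 symbiotic tag, and the plus cluster from 7179832 to 7179877 had 32 and 19, which put the pair at 18.7 and 5.09 CPM, 3.67-fold lower in the symbiotic library (2.10 to 6.63). With the other 3 plus clusters of the place added, the difference was 1.70-fold (1.31 to 2.22). The divergent pair with the shortest distance, 27 bases, lay on scaffold_16, where a plus cluster from 6594314 to 6594324 with 0 and 7 tags sat inside the span of a minus cluster from 6594195 to 6594336 with 87 and 283. The longest, 486 bases on scaffold_10, had 2 and 3 plus tags and 0 and 10 minus tags.

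Convergent pairs included the strongest clusters. In 10 pairs, each in a place of its own, the stronger partner had at least 1000 tags, while no divergent partner reached that number. The weaker partners there had 6 to 13 tags at 239 to 479 bases and held 0.0243% to 0.704% of the tags. The strongest was on scaffold_7, where a plus cluster from 9564865 to 9565315 had 9769 aposymbiotic and 18994 symbiotic tags and the minus cluster from 9565285 to 9565328, which overlaps its end, had 2 and 5. On scaffold_3, a plus cluster from 11447631 to 11447875 with 4070 and 6639 tags faced a minus cluster on bases 11447988 and 11447989 with 4 and 2. Another such pair on scaffold_7 had 3 and 4 plus tags, all on base 9737693, and 3891 and 5103 minus tags from 9737813 to 9738063. Over all 133 convergent pairs, the stronger partner ranged up to 28763 tags while the weaker had 5 to 18.

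Members with few tags were narrower when convergent. Among clusters of 5 to 9 tags, the median span was 5 bases in 88 convergent, 12.5 bases in 42 divergent and 14 bases in 27445 unpaired clusters, and the top position held 57.1%, 50% and 44.4% of the tags. Among clusters of 10 to 19 tags the spans were 12.5, 18 and 25 bases. The order turned for clusters of 50 to 199 tags, where 17 convergent clusters spanned a median of 89 bases and unpaired ones 73. Of the 90 clusters that were the weaker partner of a convergent pair, 8 lay on a single base, 8.89%, against 2.39% of the 40824 unpaired clusters of 5 to 18 tags, a class set after the values were seen. Whether narrow piles of tags hold repeated reads of the same molecule was not tested.

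The kinds differed in where their clusters stood in the same-strand locus. The rule looks upstream for divergent and downstream for convergent partners, so these places follow in part from the rule. Of the convergent clusters, 34.2% were the last and 30.7% the only cluster of their locus, and 1.51% were the first. Of the divergent clusters, 33.7% were the first, 13.7% the only and 7.37% the last. Over all clusters 20.4% were first, 20.4% last and 11.5% alone. In 63 of 133 convergent pairs both partners were last or alone, and in 21 of 71 divergent pairs both were first or alone. A typical convergent pair set a weak, solitary cluster against a longer locus: the weaker partner was alone in 90 of 133 pairs, and the stronger partner belonged to a locus with a median of 8 clusters, against 4 in divergent pairs. The same solitary cluster could count in several of these pairs, and 61 of 199 convergent clusters were alone.

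**Figure D4:**
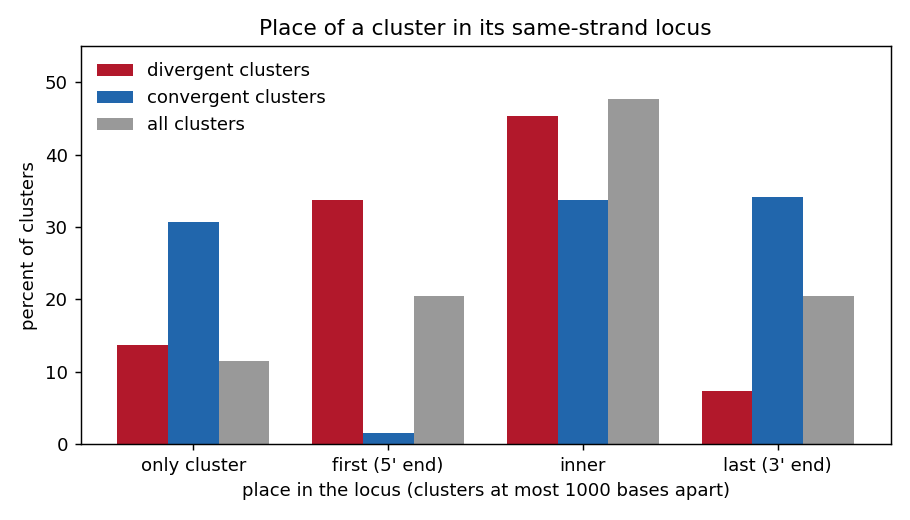
Percent of clusters (vertical axis) that are the only, the first, an inner or the last cluster of their same-strand locus, for 95 divergent, 199 convergent and all 54909 clusters. First clusters make up 33.7% of divergent and 1.51% of convergent clusters, and last clusters 7.37% and 34.2%.

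The comparison of the libraries asked whether the pairs were used alike in aposymbiotic and symbiotic animals. Divergent pairs were spread on both sides, and convergent pairs were mostly lower in the symbiotic library. The rule used the pooled tags but not the ratio between the libraries. As background, among all 13136 single-strand clusters with at least 20 pooled tags, 5.37% stood at least 2-fold above and 4.99% at least 2-fold below the aposymbiotic level when 1 CPM was added to both values. Adding 1 CPM makes changes of low clusters look smaller than they are. The 4-fold rule was met by 0.312% and 0.16%. Their median log2 ratio was 0.01.

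Of 44 divergent pairs with at least 20 joint tags, 4 (9.09%) were higher in the symbiotic library by 2-fold or more and 2 (4.55%) were lower by as much. The 4 higher pairs lay in 3 places, 2 of them in the place on scaffold_7 with 5 plus clusters. Counted as single clusters, like the background, 24 divergent clusters with at least 20 tags gave the opposite balance, with 1 (4.17%) higher and 4 (16.7%) lower, a median of -0.07 and 14 of 24 below 0. Among the 44 pairs, the median log2 ratio was 0.10 (-0.09 to 0.39), with a range of -1.69 to 1.34, and 27 were above 0. Summed by place, 11 of 21 were above 0, and 4 of 21 were at least 2-fold higher and 0 lower. These 4 places had few tags. On scaffold_7 from 9565285 to 9565706 there were 3 aposymbiotic and 20 symbiotic tags, 3.63-fold higher (1.08 to 19.1). On scaffold_6 from 7296685 to 7297164 there were 5 and 26 tags (2.83-fold, 1.07 to 9.44), on scaffold_10 from 14386473 to 14387171 there were 7 and 33 (2.57-fold, 1.12 to 6.88), and on scaffold_1 from 36427386 to 36427884 there were 6 and 28 (2.54-fold, 1.03 to 7.51). None of the 44 pairs met the 4-fold rule.

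Of 90 convergent pairs with at least 20 joint tags, 0 were higher in the symbiotic library by 2-fold or more and 17 were lower by as much, 18.9% against the background of 4.99%. The median log2 ratio was -0.51 (-0.58 to -0.27), and 68 were below 0. None met the 4-fold rule, and with 5 CPM added 2 in place of 17 met the 2-fold rule, at a median of -0.32. Summed by place, 45 of 59 were below 0, and 9 of 59 (15.3%) were at least 2-fold lower and 0 higher. The median by place was -0.41 (-0.53 to -0.20). Among 59 single convergent clusters with at least 20 tags, counted like the background, 8 (13.6%) were at least 2-fold lower and 0 higher. The median of these clusters was -0.40 (-0.60 to -0.24), and 48 were below 0.

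**Figure D5:**
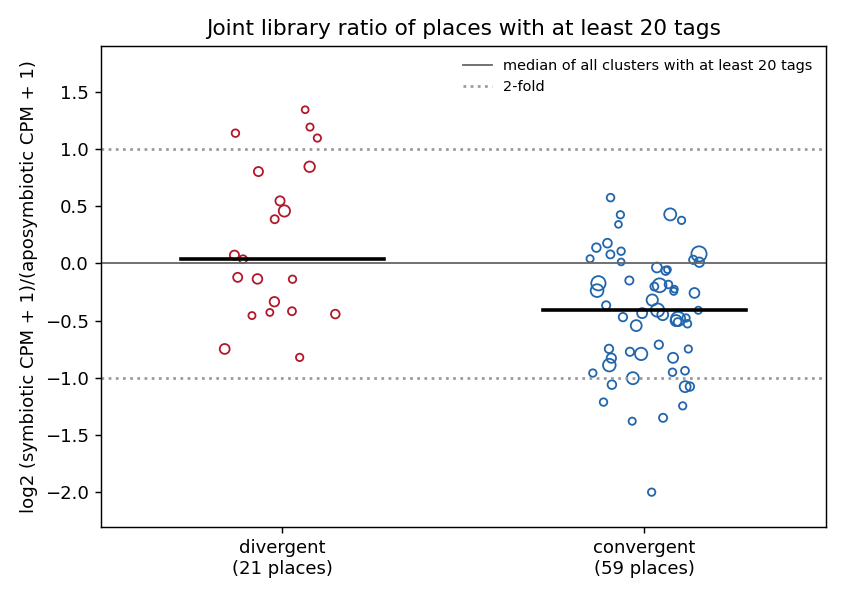
Log2 ratio of symbiotic to aposymbiotic CPM + 1 (vertical axis) for 21 divergent and 59 convergent places with at least 20 joint tags, with larger circles for more tags, thick bars at the medians, dotted lines at 2-fold and a thin line at the median of all clusters with at least 20 tags. Divergent places lie on both sides of 0 with a median of 0.04, and 45 of 59 convergent places lie below 0.

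Both sides of the convergent pairs were lower in the symbiotic library. The 90 weaker partners had 362 aposymbiotic and 374 symbiotic tags in all, 169 and 95.2 CPM, which is 0.563 times the aposymbiotic level (0.486 to 0.652), and 71 of 90 were below 0. Unpaired clusters of 5 to 18 tags stood at 0.991 times (0.984 to 0.998), with 48.7% below 0. The 124 stronger convergent partners summed to 0.870 times (0.857 to 0.883), a milder difference than that of the weaker ones, and to 0.773 times (0.758 to 0.787) without the strongest cluster. Per cluster the medians were alike, at -0.40 (-0.60 to -0.21) with 92 of 124 below 0 for stronger and -0.45 (-0.67 to -0.25) for weaker partners. In divergent pairs the sum of the 63 stronger partners was at 1.12 times the aposymbiotic level (1.03 to 1.22), but at 1.02 times (0.929 to 1.13) without its strongest cluster, and 35 of 63 were below 0 with a median log2 ratio of -0.06. The 46 weaker divergent partners summed to 0.979 times (0.808 to 1.19), with a median of 0.23 and 20 of 46 below 0. A cluster could be stronger in a pair and weaker in another pair, so the stronger and weaker sets share clusters. The 124 and 90 partners came from 199 convergent clusters, and the 63 and 46 from 95 divergent clusters.

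Since convergent clusters were often the last or only ones of their locus, their ratios were set beside unpaired clusters in the same place. Of last clusters with at least 20 tags, the median log2 ratio was -0.63 in 20 convergent and -0.16 in 1766 unpaired clusters, with 95% and 59.5% below 0. Of last clusters with 5 to 19 tags it was -0.39 in 48 and -0.08 in 9383. Of solitary clusters with 5 to 19 tags it was -0.67 in 59 convergent and 0.06 in 5871 unpaired clusters, with 78.0% and 48.3% below 0. Convergent clusters were thus lower than unpaired ones in the same place in the locus, and the unpaired last clusters were themselves below 0. Inner convergent clusters with 5 to 19 tags, 31 in number, did not share this, with a median of 0.06 in both sets, whereas the 36 inner ones with at least 20 tags had a median of -0.22 against 0.02.

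Among convergent places with at least 20 tags, the lowest was on scaffold_5 from 9449875 to 9450374, chosen after its values were seen. There 5 plus tags and 21 minus tags in the aposymbiotic library stood against 0 and 9 in the symbiotic library, a 5.31-fold difference in CPM (2.41 to 12.9). On scaffold_11, a plus cluster from 15353769 to 15353778 had 6 and 7 tags and a minus cluster from 15353853 to 15353978 had 29 and 16, at 121 bases, 2.79-fold lower in the symbiotic library (1.61 to 4.95). On scaffold_7, a plus cluster from 1821125 to 1821333 had 274 and 241 tags and a minus cluster from 1821444 to 1821447 had 9 and 2, 2.14-fold lower (1.80 to 2.55). Both strands of these pairs had lower values in the symbiotic library, though that of the plus partner on scaffold_11 was within counting error, at 0.635 times (0.183 to 2.29).

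On scaffold_2, a plus cluster on the single base 3030312 had 10 aposymbiotic and 6 symbiotic tags. It faced a minus cluster from 3030611 to 3030708 with 29 and 26 tags, 2.24-fold lower in all (1.37 to 3.69), and another from 3030730 to 3030768 with 11 and 10. On scaffold_8, a minus cluster from 6872379 to 6872386 with 17 and 10 tags faced 3 plus clusters at 42, 413 and 465 bases with 10 and 7, 3 and 13, and 8 and 10 tags. The nearest of these pairs was 2.92-fold lower in the symbiotic library (1.53 to 5.70), while the pair at 413 bases differed by less than counting error (1.60-fold lower, 0.832 to 3.04). The pair on scaffold_4 with a plus cluster from 4469910 to 4470022 (73 and 88 tags) and a minus cluster from 4470309 to 4470313 (6 and 8 tags) was 1.51-fold lower (1.11 to 2.06).

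In the other direction, the highest convergent pair with at least 50 tags was on scaffold_16, where the plus cluster from 6594314 to 6594324 described above faced a minus cluster from 6594420 to 6594661 with 371 and 911 tags, 1.35-fold higher (1.19 to 1.52). Pairs on scaffold_7 with a plus cluster from 7417199 to 7417254 (25 and 69 tags, facing 4 and 3) and on scaffold_8 with a minus cluster from 6656923 to 6656994 (24 and 53 tags, facing 3 and 5) were 1.35-fold (0.867 to 2.16) and 1.17-fold higher (0.729 to 1.92), both within counting error. A pair on scaffold_2 with 13 and 22 plus tags from 7920672 to 7920699 and 6 and 10 minus tags at 7921173 to 7921174 was level (1.09-fold lower, 0.584 to 1.98). The shortest convergent pair, with tops 3 bases apart on scaffold_7, had 9 and 30 plus tags ending at base 539716 and 4 minus tags and 1 minus tag starting at 539717. The longest, 498 bases on scaffold_7, had 24 and 35 plus tags and 6 minus tags and 1 minus tag.

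At equal depth, more convergent pairs were called in the aposymbiotic than in the symbiotic library. Clusters called in the aposymbiotic library alone gave 42 convergent and 16 divergent pairs among 23754 clusters. With the symbiotic library thinned at random to the same total, 20 draws gave a median of 14 convergent pairs (6 to 19) and 14 divergent pairs (10 to 24), among a median of 22848.5 clusters (22764 to 23007). The aposymbiotic count was above this range for convergent and within it for divergent pairs. That range holds only the error of thinning a single library, and not the spread between libraries, so the difference was not tested. At full depth the symbiotic library gave 44 convergent and 42 divergent pairs. For the pairs called from pooled tags, both partners had at least 5 tags in the aposymbiotic library in 36 of 133 convergent and 12 of 71 divergent pairs, and in the thinned symbiotic library in 10 and 14. Tags of both partners were present in both libraries in 125 convergent and 59 divergent pairs.

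Whether the partners of a pair moved together could be described for few pairs. Only 4 divergent and 0 convergent pairs had at least 20 tags in each partner. With at least 10 tags in each partner there were 19 divergent pairs, of which 2 had partners with the same sign of the log2 ratio. Their partners' ratios correlated at -0.66 by Pearson and -0.78 by Spearman, but the 19 pairs lay in 8 places and shared clusters. Of 30 such convergent pairs, in 19 places, 19 had the same sign. Summed by strand within places with at least 10 tags on each strand, 4 of 9 divergent and 14 of 20 convergent places had the same sign on both strands, and all 14 of the latter were below 0 on both. Over those places, which share libraries and depth, the ratios of the strands correlated at -0.17 by Pearson and -0.23 by Spearman for 9 divergent places and at 0.24 and 0.32 for 20 convergent places. The negative value of the divergent pairs was thus much smaller once each place counted once, and no relation is read from these sparse counts.

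There was 1 deposited cluster list per library, and each held a part of the pairs. In the aposymbiotic list, both partners fell in separate clusters with opposite listed strands in 9 of 71 divergent and 39 of 133 convergent pairs. In the symbiotic list this was so in 34 of 71 and 41 of 133. Both partners fell in the same deposited cluster in 1 divergent and 3 convergent pairs of the aposymbiotic and 1 and 4 of the symbiotic list, and neither was listed in 26 and 24 and in 8 and 19 pairs.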

How the data were processed

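CAGE tags were measured in 1 aposymbiotic and 1 symbiotic library of whole hydra. Per the submitters' processing notes, fastp 1.1.0 and STAR 2.7.11b were used. The settings, genome build, tag counter and any duplicate filter were not given in the sources used here. The values the authors deposited are raw tag counts, listed by base and strand and also totalled by cluster with a minimum of 5 tags. At these depths 1 aposymbiotic tag equals 0.468 CPM and 1 symbiotic tag 0.255, and the limit of 3 tags equals 1.40 and 0.764.

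Single-strand clusters were called anew from the pooled counts, and held 93.9% of the tags. Ties for the top position went to the lowest coordinate. Each cluster was paired with its nearest opposite-strand partner of the same kind, and mutual pairs were counted once. Ratios were taken on CPM + 1 after scaling by total tags. Folds of named regions are ratios of CPM with exact binomial intervals at 95%, shares have exact Clopper-Pearson intervals, counts have exact Poisson intervals, and medians have intervals from order statistics. The regions named are, of each kind, the 8 pairs with the most tags in the weaker partner, the 3 with the most joint tags, the 3 highest and 3 lowest ratios among pairs with at least 50 joint tags, and the shortest and longest distance. The places with a ratio of at least 2-fold, and those described with them, were added after their values were seen. Members and lists were chosen with earlier results of these data known. Loci, places, the tag profile and the 20 thinning draws were added after the data were seen. The calling of pairs was tested on simulated data. The simulated pairs stood far apart and had many more tags than most real ones. Calling of sparse pairs or pairs with shared partners was not tested. Alternatives covered joining, minimum tags, window, library, depth, scaling (edgeR 4.0.16 under R 4.3.3 for TMM), added constant and filters. Calculations ran in Python 3.11.15 with scipy 1.17.1 and numpy 2.4.6, tables in pandas 2.3.3 and plots in matplotlib 3.10.9. Sequences and gene names are not reported, since a genome and gene models were not used here.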

Additional observations from a re-analysis of the deposited data

Results flagged for a closer look

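Tags on the strand that the deposited lists do not give were found inside deposited clusters that hold the top position of a member. In the aposymbiotic list 30 of 29061 tags in 150 such clusters lay on the strand not listed, and in the symbiotic list 1847 of 47565 in 193 clusters, 0.103% and 3.88%. They are present in the lists per base and in the cluster totals, but the strand given for the cluster is not theirs. The listed strand held the fewer tags in 1 aposymbiotic and 5 symbiotic clusters. Most of the symbiotic tags belong to a cluster on scaffold_11 from 14060559 to 14060782, listed on the plus strand with 1 plus and 1518 minus tags, and to one on scaffold_16 from 6594195 to 6594336, also listed on the plus strand with 7 plus and 283 minus tags. Pairs in the report were called from single-base counts with strands kept apart, so these listings do not enter them. Such listings do enter the alternative count of pairs from deposited clusters, given below.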

How the results depend on the processing

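Of 108 values recomputed under alternatives, 57 kept to within 1.5 times or the spread of the main value and 51 moved. A reversal was looked for only in the summed ratios of stronger partners, and neither reversed. The number of divergent and convergent pairs moved from 71 and 133 to 21 and 31 with at least 10 tags per cluster, 6 and 1 with at least 20, 8 and 25 in a window of 200 bases, 211 and 431 in one of 1000 bases, 16 and 42 from the aposymbiotic library alone, 42 and 44 from the symbiotic library alone, 15 and 15 from that library thinned, and 177 and 289 with deposited clusters on their listed strand. Thinning before pooling left 42 divergent pairs. The median distance rose to 640 and 634 bases in the window of 1000, and to 414 in convergent pairs with at least 10 tags per partner. The median share of the weaker partner fell to 9.89% and 6.45% with at least 50 joint tags, 25% and 25% in aposymbiotic tags, 25.4% and 27.3% in symbiotic tags, and 27.3% in convergent pairs joined over 50 bases.

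Divergent pairs higher and lower by 2-fold, 4 and 2, became 0 and 1 with 5 CPM added, 8 and 6 with at least 10 joint tags or no filter, 2 and 1 with at least 50, and 0 and 0 at 4-fold. The 2 lower ones became 1 after thinning and 0 by place. The 17 lower convergent pairs became 2 with 5 CPM added, 28 with at least 10 joint tags or no filter, 5 with at least 50, 0 at 4-fold and 9 by place, and 1 was higher with at least 10 joint tags or no filter. Without the strongest cluster, the summed ratio of stronger partners went from 1.12 to 1.02 in divergent and from 0.870 to 0.773 in convergent pairs. Divergent pairs of the same sign numbered 1 of 4, and 2 and 0 with at least 10 and 50 tags per partner. The cause was not tested beyond what each alternative changes by construction. The median ratio kept its sign under every scaling, constant, filter and depth tried, at 0.04 to 0.25 in divergent and -0.51 to -0.32 in convergent pairs. The interval of the main divergent median, -0.09 to 0.39, spanned 0, however. Single divergent clusters with at least 20 tags, which were not among these alternatives, had a median of -0.07. Sums by place, leaving out the strongest cluster, the thinned library alone and the limit of 10% on the weaker partner were chosen after seeing the data. Most pairs rest on 5 to 9 tags in a partner, which limits every ratio of a single pair. No paired analysis was possible because the aposymbiotic and the symbiotic group hold 1 library each.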

Other observations

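Convergent and divergent members were spread unevenly over the scaffolds. Scaffold_7 held 45 members among 3531 clusters, 1.27%, and scaffold_6 held 39 among 4129, 0.945%, whereas scaffold_9 held 10 among 4169, 0.240%, and scaffold_13 held 3 among 1995, 0.150%. On scaffold_8, scaffold_4, scaffold_11, scaffold_14 and scaffold_13 all 15, 15, 11, 7 and 3 members were convergent, and on scaffold_10 16 of 22 were divergent. Members of a place share clusters, so these counts are not independent.

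Clusters that were both divergent and convergent numbered 3, each the only cluster of its locus and each weak. The plus cluster on scaffold_16 from 6594314 to 6594324 had 0 aposymbiotic and 7 symbiotic tags. On scaffold_7, the minus cluster from 539717 to 539720 had 4 tags and 1 tag, and the minus cluster from 9565285 to 9565328 had 2 and 5. The top position of each lay between the tops of opposite-strand clusters on either side.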
